A study of Mus musculus with 28 samples.

Results

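The Cyp3a family of the mouse was read across 28 whole-liver RNA-seq libraries, 1 per animal, from a study of endothelial c-Myc in diet-induced liver inflammation and fibrosis. Its 7 members here are Cyp3a11, Cyp3a13, Cyp3a16, Cyp3a25, Cyp3a41a, Cyp3a41b and Cyp3a44, taken by symbol from the 32544 gene rows of the male and the female count table. All 28 animals were C57BL/6 and received tamoxifen at 5 weeks of age, so the controls were exposed to it too. Control mice (CT) carried floxed alleles, and in the knockout mice (KO) c-Myc was deleted from endothelial cells by a tamoxifen-activated Cre whose driver is not named in the labels. From 2 weeks after tamoxifen each genotype was kept for 5 weeks on a control diet low in fat (CTD) or on one rich in fat and cholesterol (HFC). The labels give an age of 13 weeks, which is more than the age at tamoxifen and these intervals add up to. Each of the 8 groups of sex, genotype and diet held 4 males or 3 females. The members were chosen by symbol with their measured diet differences in these livers already known, so values on the 2 diets are described without a test, and tests are kept for genotype and for genotype by diet. In whole liver, fewer cells of a type and less RNA per cell cannot be told apart.

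CYP3A enzymes are cytochromes P450 of the endoplasmic reticulum that oxidise steroids, bile acids and many drugs, drawing electrons from the reductase encoded by Por. In mouse liver Cyp3a11 is the major drug-inducible form and the usual readout of the xenobiotic receptor PXR (Nr1i2) and of its relative CAR (Nr1i3). Cyp3a41a, Cyp3a41b and Cyp3a44 are known as female-predominant genes kept on by the female pattern of growth hormone release, and Cyp3a16 is known from fetal and young liver.

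On the reference assembly GRCm38 with GENCODE M21, all 7 genes lie on the minus strand of chromosome 5, and each coding transcript has 13 exons. Cyp3a16, Cyp3a41b, Cyp3a41a, Cyp3a44, Cyp3a11 and Cyp3a25 lie in that order in a cluster from base 145436309 to base 146009618, while Cyp3a13 stands apart at 137892932 to 137921619. The bases just upstream of the start site are shown for 3 genes that were nearly lost on HFC in females and for 2 that were not, read from RefSeq promoters on GRCm38.p6. Capitals mark ATCAAT, the core bound by HNF6 and CUX2, and TGTTTAC, a FOXA core.

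Cyp3a41a, chr5:145720137-145720386, minus strand: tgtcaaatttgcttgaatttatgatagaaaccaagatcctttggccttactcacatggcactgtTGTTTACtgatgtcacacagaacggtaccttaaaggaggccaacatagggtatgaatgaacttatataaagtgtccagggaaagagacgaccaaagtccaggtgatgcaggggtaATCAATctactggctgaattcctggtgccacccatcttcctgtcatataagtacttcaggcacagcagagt
Cyp3a44, chr5:145805875-145806124, minus strand: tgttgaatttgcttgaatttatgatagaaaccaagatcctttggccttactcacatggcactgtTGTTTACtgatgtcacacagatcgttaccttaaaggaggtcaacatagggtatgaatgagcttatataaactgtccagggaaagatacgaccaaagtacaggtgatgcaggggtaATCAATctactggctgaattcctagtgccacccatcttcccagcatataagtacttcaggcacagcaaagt
Cyp3a16, chr5:145469724-145469973, minus strand: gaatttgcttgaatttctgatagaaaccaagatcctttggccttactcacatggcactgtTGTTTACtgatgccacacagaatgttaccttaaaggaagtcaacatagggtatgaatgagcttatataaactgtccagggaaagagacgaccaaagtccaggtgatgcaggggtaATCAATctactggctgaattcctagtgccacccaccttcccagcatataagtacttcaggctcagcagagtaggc
Cyp3a25, chr5:146009619-146009868, minus strand: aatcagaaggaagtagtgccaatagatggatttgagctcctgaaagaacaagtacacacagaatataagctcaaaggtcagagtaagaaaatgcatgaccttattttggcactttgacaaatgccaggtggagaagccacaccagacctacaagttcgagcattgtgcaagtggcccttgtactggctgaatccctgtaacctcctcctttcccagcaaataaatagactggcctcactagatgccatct
Cyp3a11, chr5:145879965-145880104, minus strand: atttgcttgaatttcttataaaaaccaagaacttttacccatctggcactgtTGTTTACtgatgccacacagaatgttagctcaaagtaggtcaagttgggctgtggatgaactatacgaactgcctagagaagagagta

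For Cyp3a11 only the 140 bases outside the GENCODE gene are printed, because GENCODE places the gene's start further upstream than RefSeq does. Over 250 bases Cyp3a41a matched Cyp3a41b at 249 positions, and aligned with Cyp3a44 at 94.4% identity, with Cyp3a16 at 91.3% and with Cyp3a11 at 72.9%. Searched on both strands over 250 bases, ATCAAT lay in Cyp3a41a, Cyp3a41b, Cyp3a44 and Cyp3a16 and in none of Cyp3a11, Cyp3a13 and Cyp3a25, and 6.72% of 32851 RefSeq windows of that length hold it. TGTTTAC lay in those 4 and in Cyp3a11, against 3.17% of windows. AGTTCA, a core hexamer of nuclear receptor sites, lay in Cyp3a11, Cyp3a41a and Cyp3a41b, against 11.8% of windows, and TTCNNNGAA, a STAT5 core, lay in none of the 7, against 7.02%. The 4 genes that share ATCAAT are close copies over this window, so their matches are not separate occurrences. A match of letters is a description and not a binding site.

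Libraries held 22154774 to 22652285 counts in males and 18741939 to 19195502 in females. Levels are TMM-scaled library-normalised counts (CPM), and each sex was scaled and fitted on its own. A low-count filter kept 14078 genes in males, with 3 of the 7 members, and 13999 in females, with all 7. Myc, the targeted gene, ran from 3.58 to 12.4 CPM in CT males and from 3.09 to 20.1 in KO males, and from 4.37 to 11.97 and from 4.64 to 20.5 in CT and KO females. Its mean was higher in KO than in CT in all 4 comparisons, at 11.2 against 6.42 CPM in CTD males, 11.4 against 8.38 in HFC males, 11.9 against 7.33 in CTD females and 10.02 against 6.51 in HFC females, which is not the direction of a deletion. A deletion limited to endothelial cells is read here against all liver cells, so these levels do not check the genotype labels. Myc passed the test in none of the genotype comparisons (edgeR's quasi-likelihood test, adjusted p 0.842 or above). Cyp3a41a and Cyp3a41b transcripts are 99.7% identical. Of the 100-base windows of Cyp3a41a 90.8% also occur in another gene, against 5.37% for Cyp3a44, 6.05% for Cyp3a25, 0.312% for Cyp3a11 and 0% for Cyp3a13. With 50-base windows the shares were 98.6% for Cyp3a41a, 93.5% for Cyp3a41b, 26.8% for Cyp3a25 and 26.5% for Cyp3a44. They were 14.8% for Cyp3a11, 10.7% for Cyp3a16 and 0% for Cyp3a13. How reads that match several genes were counted is not given in the sources used here, so the split between Cyp3a41a and Cyp3a41b is uncertain.

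Cyp3a11 was the most abundant member in every library and was higher on HFC in both sexes. In CT males on CTD it measured 1626, 1144, 895 and 920 CPM in animals 301, 305, 313 and 320. On HFC the CT males 416, 417, 418 and 543 measured 10612, 3420, 13695 and 3915 CPM. The lowest HFC male was above the highest CTD male, and animals 416 and 418 stood well above the other 2. In KO males the CTD values were 1640, 1218, 1299 and 1748 CPM in animals 298, 303, 304 and 311, and the HFC values were 4897, 6124, 3885 and 10296 CPM in animals 414, 415, 539 and 540. The KO groups did not overlap either, and animal 540 stood highest. The log2 difference between diets was 2.79 (SE 0.44) in CT males and 2.09 (SE 0.43) in KO males, or 6.90-fold and 4.27-fold on the group means.

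Female Cyp3a11 began higher and moved less. CT females on CTD had 2645, 2106 and 2693 CPM in animals 306, 308 and 318, and on HFC 3632, 4218 and 3756 CPM in animals 420, 510 and 512. KO females on CTD had 2738, 2069 and 2376 CPM in animals 307, 309 and 317, and on HFC 4128, 4091 and 5680 CPM in animals 412, 413 and 419. The diets did not overlap in either genotype. The log2 differences were 0.64 (SE 0.18) in CT and 0.95 (SE 0.19) in KO females, and they were 0.93 and 1.26 when library totals replaced TMM scaling. The sexes were scaled and fitted apart, so male and female levels and differences stand side by side without a test between them.

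**Figure D1:**
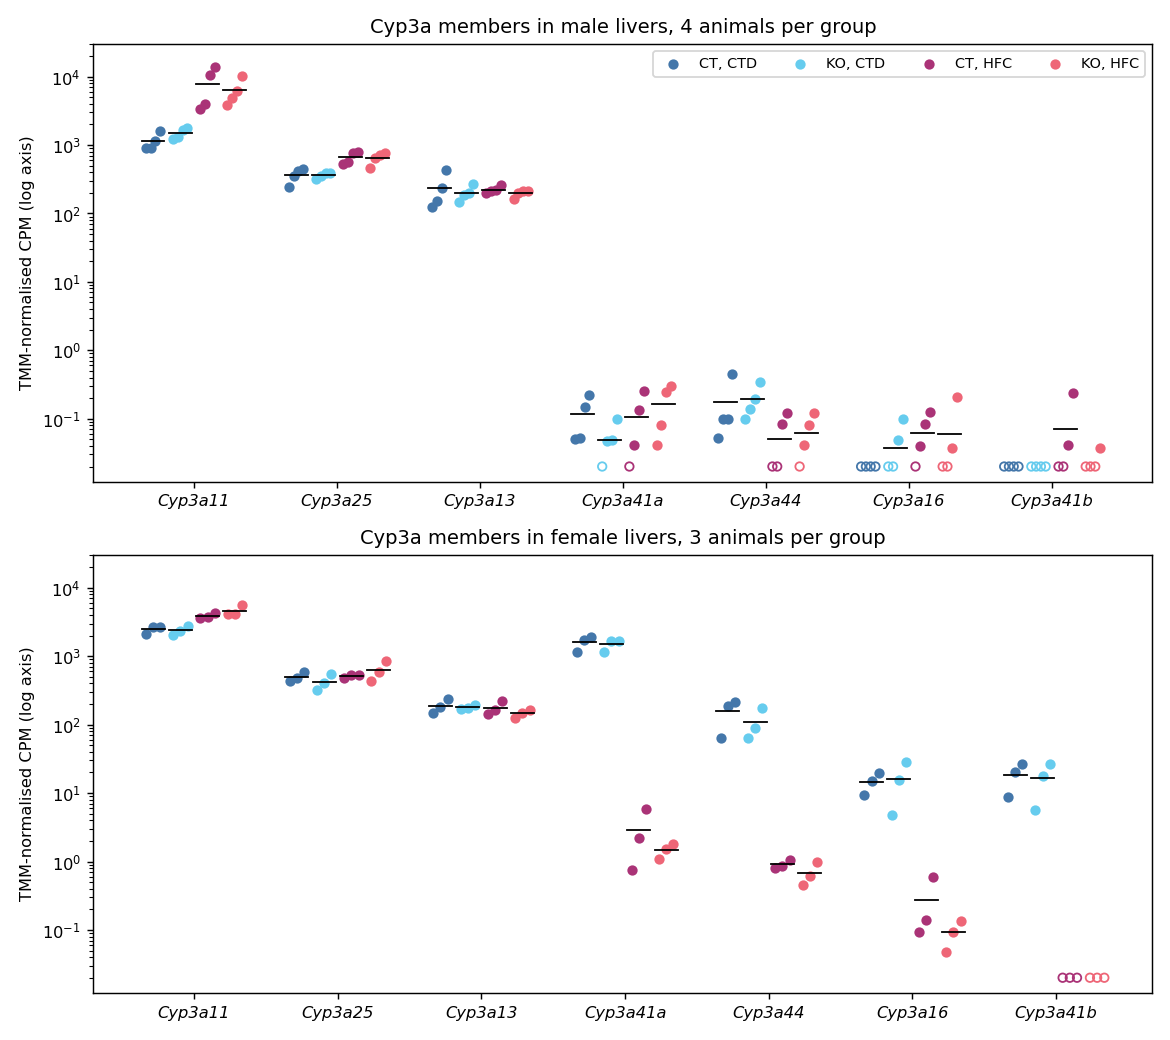
Each point is 1 animal's TMM-normalised CPM on a log axis, by member, genotype and diet, with males above and females below; bars are group means and open circles are libraries with 0 counts, drawn at the foot of the axis. In females Cyp3a41a goes from 1154 CPM or more on CTD to 5.76 or less on HFC, while Cyp3a11 is higher on HFC in both sexes.

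Cyp3a41a, a female-predominant hydroxylase gene, was second to Cyp3a11 in CTD females and nearly absent from HFC females. CT females measured 1936, 1715 and 1164 CPM when fed CTD, and the CT females 420, 510 and 512, fed HFC, measured 0.75, 2.22 and 5.76 CPM. The KO values were 1154, 1679 and 1668 CPM with CTD against 1.10, 1.52 and 1.79 CPM with HFC. The lowest CTD female, at 1154 CPM, was far above the highest HFC female, at 5.76. On group means 0.181% of the CTD level was left in CT and 0.0978% in KO females, with log2 differences of -9.12 (SE 0.65) and -9.99 (SE 0.68). Animal 512 held the most of the HFC females, and without it the CT difference was -10.08. In raw counts the gene went from 19559 to 30992 per CTD library to 16 to 108 per HFC library.

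Cyp3a44, its closest neighbour in sequence after Cyp3a41b, was also nearly lost on HFC. In CT females it measured 190, 63.6 and 215 CPM under CTD and 0.80, 1.06 and 0.85 under HFC. The KO values were 64.5, 89.4 and 176 CPM under CTD and 0.46, 0.995 and 0.61 under HFC. The log2 differences were -7.42 (SE 0.64) and -7.31 (SE 0.65), which left 0.580% and 0.626% of the CTD mean. The CTD females differed among themselves more than for Cyp3a41a, with a coefficient of variation of 52.0% in CT and 53.3% in KO against 24.8% and 20.0%.

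The 2 copies with lower counts followed the same direction, and the low count of Cyp3a41b rests on the uncertain split of its reads from Cyp3a41a. Cyp3a16 measured 19.9, 14.8 and 9.41 CPM in CT females on CTD and 0.09, 0.14 and 0.59 on HFC, and 4.72, 28.8 and 15.5 against 0.14, 0.05 and 0.09 CPM in KO females. Its log2 differences were -5.77 (SE 0.79) in CT, or -6.91 without animal 512, and -7.36 (SE 0.91) in KO females. Cyp3a41b measured 27.1, 20.1 and 8.68 CPM in CT and 5.72, 26.7 and 17.9 CPM in KO females on CTD, and had 0 counts in all 6 HFC females. Against a floor of 3 counts over the HFC group it was at least 382-fold lower in CT and at least 359-fold lower in KO females. In males these 4 genes had 0 to 10 counts per library on either diet and were not tested.

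Summing Cyp3a41a, Cyp3a41b, Cyp3a44 and Cyp3a16 gives a level that does not depend on how counted reads were split among them. It does not bring back any reads left out for matching several genes, nor settle reads shared with genes outside the sum. The sum was 2174, 1814 and 1397 CPM in CT females given CTD and 1.65, 3.43 and 7.20 CPM in those given HFC. In KO females it was 1229, 1824 and 1878 CPM against 1.69, 2.56 and 2.50. No HFC female came near any CTD female. The pseudogene Cyp3a63-ps of the same cluster, which is not a member, was at 1.81 to 4.37 CPM in CTD females and at 0.053 or less in HFC females.

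Cyp3a25, a steroid- and drug-oxidising member at the far end of the cluster, was higher on HFC in males. CT males measured 411, 350, 448 and 240 CPM on CTD and 752, 562, 799 and 520 on HFC, and KO males 388, 351, 320 and 388 against 455, 757, 649 and 704 CPM. The diets did not overlap in either male genotype, with log2 differences of 0.86 (SE 0.19) and 0.83 (SE 0.19). In females they overlapped, at 587, 441 and 489 against 479, 531 and 525 CPM in CT and 409, 326 and 547 against 434, 592 and 839 CPM in KO. The female log2 differences were 0.02 (SE 0.24) and 0.54 (SE 0.24). Cyp3a59, which is 96.6% identical to Cyp3a25 in transcript and is not a member, was 4.13 to 12.4 CPM in CTD males and 35.3 to 161 in HFC males, and 12.03 to 21.7 against 31.5 to 79.4 CPM in females.

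Cyp3a13, which lies outside the cluster and shares no 50-base window with another gene, overlapped between diets in both male genotypes and in CT females. It ranged from 123 to 432 CPM over the CTD males and from 160 to 256 over the HFC males, and from 150 to 241 and from 127 to 220 CPM in CTD and HFC females. Log2 differences were -0.09 in CT males, -0.03 in KO males, -0.11 in CT females and -0.29 in KO females, and with library totals they turned to 0.16, 0.25, 0.20 and 0.01. In KO females the HFC values of 127, 162 and 150 CPM lay just under the CTD values of 168, 193 and 175.

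Counted over members, HFC values lay wholly below CTD values for 0 members in males of either genotype, for 4 in CT females and for 5 in KO females, the fifth being Cyp3a13. Among all tested genes 14.1% lay wholly below in CT females and 14.1% in KO females, and 10.2% and 14.7% in CT and KO males. Wholly above were Cyp3a11 and Cyp3a25 in both male genotypes and Cyp3a11 in both female genotypes, against 11.4% and 15.4% of genes in CT and KO males and 14.3% and 12.2% in CT and KO females. Because the diet differences were known when the members were chosen, nothing is read from these counts.

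**Figure D2:**
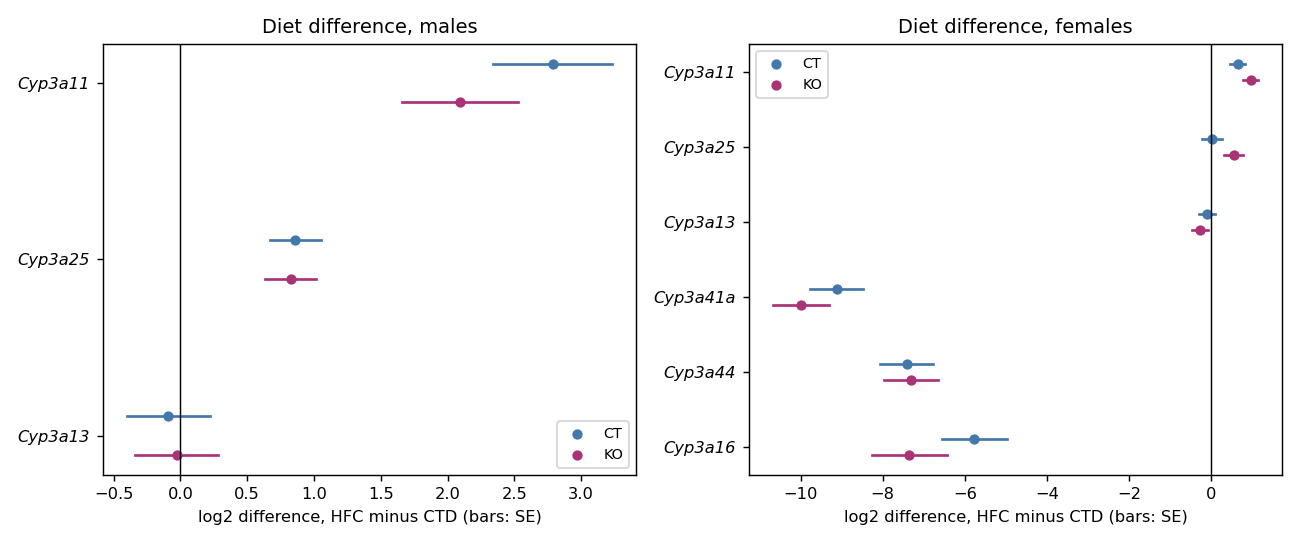
Log2 difference between HFC and CTD for the tested members in CT (blue) and KO (purple) animals, with bars of 1 SE; the x axes of the sexes differ, and Cyp3a41b is left out because it has 0 counts in every HFC female. Cyp3a11 and Cyp3a25 lie right of 0 in males, and Cyp3a41a reaches -9.99 in KO females.

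The summed level of the 7 members rose with Cyp3a11 in males and changed its makeup in females. Males had 1284 to 2190 CPM in CT and 1803 to 2334 in KO on CTD, and 4239 to 14690 in CT and 4737 to 11210 in KO on HFC. CT females had 5646, 4511 and 4757 CPM on CTD and 4258, 4972 and 4451 on HFC, and the ranges overlapped. KO females had 4544, 4412 and 4975 CPM on CTD and 4690, 4848 and 6671 on HFC, which also overlapped. The log2 difference of the total was 2.15 in CT males, 1.74 in KO males, -0.12 in CT females and 0.20 in KO females, and the CT female value turned to 0.17 with library totals.

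Within the family, Cyp3a11 made up 50.05% ± 5.68 (SD, n = 3) of member CPM in CT females on CTD and 84.8% ± 0.457 on HFC, and Cyp3a41a 32.3% ± 7.005 and 0.0639% ± 0.0583. In KO females the Cyp3a11 share was 51.6% ± 7.47 on CTD and 85.8% ± 1.92 on HFC (SD, n = 3). In CT males Cyp3a11 made up 65.6% ± 10.7 of the CTD total and 87.4% ± 6.01 of the HFC total (SD, n = 4), so the HFC shares of the sexes stood close together. Per kilobase of transcript, which allows levels of different genes to be compared, the order in CT females on CTD was Cyp3a11 at 1059 ± 139 CPM per kb, Cyp3a41a at 779 ± 193, Cyp3a25 at 253 ± 37.3, Cyp3a44 at 79.7 ± 41.4, Cyp3a13 at 64.1 ± 15.7, Cyp3a41b at 9.02 ± 4.50 and Cyp3a16 at 8.50 ± 3.02 (SD, n = 3). Cyp3a44 and Cyp3a13 did not differ beyond their spread, nor did Cyp3a41b and Cyp3a16. The places of Cyp3a41a and Cyp3a41b in this order rest on the uncertain split of their reads. In CT males on CTD the order was Cyp3a11 at 489 ± 144 CPM per kb, Cyp3a25 at 181 ± 45.4 and Cyp3a13 at 79.7 ± 47.0 (SD, n = 4), with the other 4 members under 0.1.

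**Figure D3:**
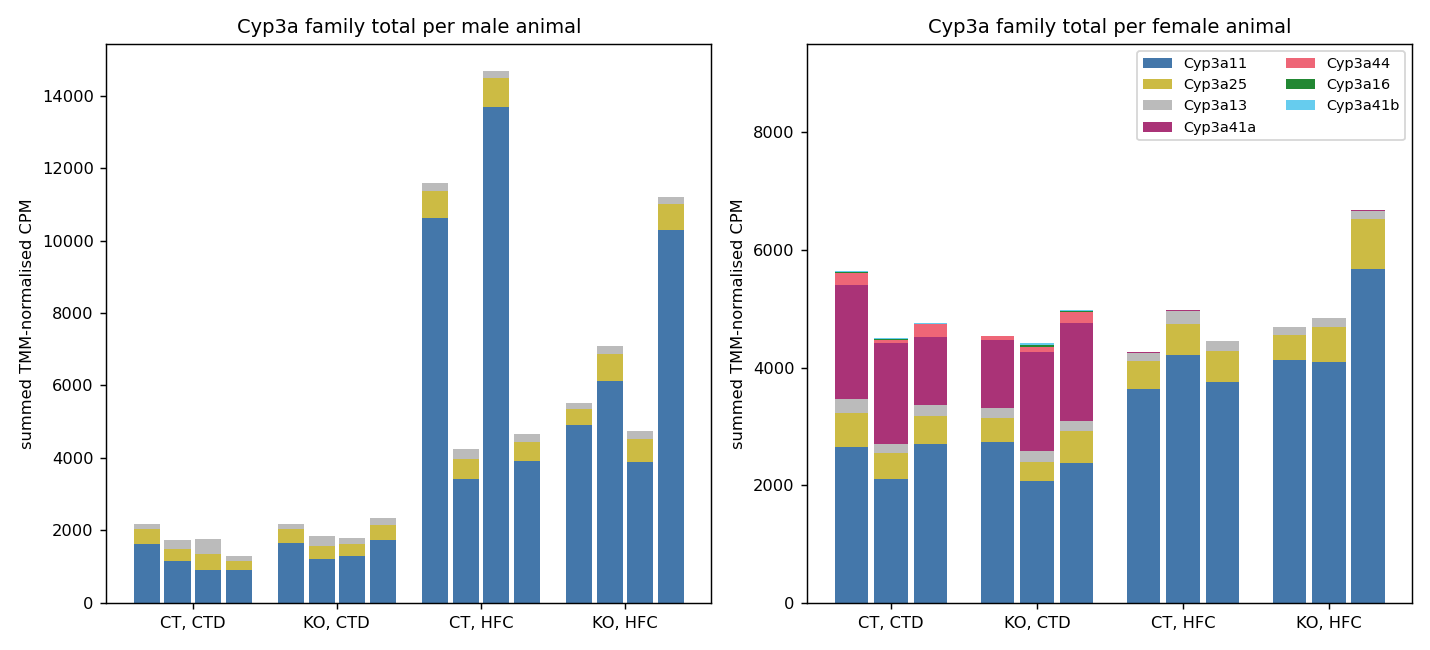
Each bar is 1 animal, stacked by member in TMM-normalised CPM from 0, with males left and females right on separate axes. The Cyp3a41a part of the CTD female bars is missing on HFC while the total stays between 4258 and 6671 CPM, and male totals reach 14690 CPM on HFC.

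No member passed the test for genotype. With edgeR's quasi-likelihood test and Benjamini-Hochberg adjustment over all tested genes, 0 of 3 members in males and 0 of 7 in females passed for KO against CT on CTD, for KO against CT on HFC or for the interaction of genotype and diet. At an unadjusted p under 0.05 the count of members was also 0 in all 6 comparisons, the smallest being 0.112, and DESeq2 called 0 members. The share of all genes called was 0% in each comparison. At an unadjusted p under 0.05 there were 949, 653 and 852 genes in males for CTD, HFC and the interaction, and 446, 311 and 546 in females. DESeq2 called 11, 3 and 5 genes in males and 1, 0 and 0 in females.

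The intervals say which genotype differences these animals could have hidden. For Cyp3a11 on HFC the KO minus CT log2 difference was -0.33 in males (95% interval -1.22 to 0.56, adjusted p = 0.960) and 0.26 in females (-0.14 to 0.66, adjusted p = 0.9999). On CTD it was 0.37 in males (-0.53 to 1.26, adjusted p = 0.938) and -0.05 in females (-0.45 to 0.35, adjusted p = 0.999). Female intervals were thus tighter than male ones for this gene. For Cyp3a41a the difference was -0.10 on CTD (-1.08 to 0.89, adjusted p = 0.999) and -0.97 on HFC (-2.21 to 0.27, adjusted p = 0.9999), the latter between levels of a few CPM. Cyp3a25 differed by -0.04 in males on HFC (-0.44 to 0.37) and by 0.28 in females (-0.23 to 0.79). The widest interval was that of Cyp3a16 on HFC in females, -1.43 (-4.60 to 1.74), where 1 to 11 counts stood behind each library. For Cyp3a41b on HFC no difference could be had, since both groups had 0 counts.

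No member passed the test of whether its diet difference depended on genotype. The interaction was -0.69 for Cyp3a11 in males (95% interval -1.96 to 0.57, adjusted p = 0.953) and 0.31 in females (-0.25 to 0.87, adjusted p = 0.991). For Cyp3a41a it was -0.87 (-2.45 to 0.71, adjusted p = 0.991) and turned to 0.08 without animal 512. 

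**Figure D4:**
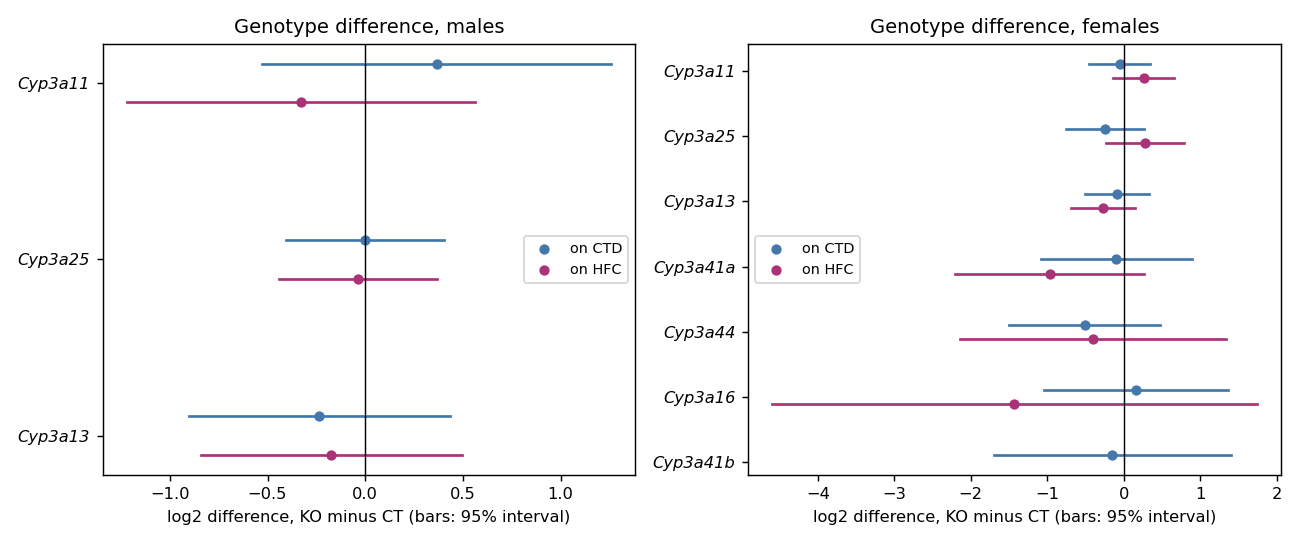
Log2 difference between KO and CT on CTD (blue) and HFC (purple) for each tested member, with 95% intervals from edgeR. Every interval crosses 0, and the widest is that of Cyp3a16 on HFC in females, from -4.60 to 1.74.

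Among HFC males the coefficient of variation of Cyp3a11 was 64.0% in CT and 44.7% in KO, against 29.5% and 17.4% on CTD. In females it stayed between 7.99% and 19.6%. As a description over 16 male libraries, deviations from group means in log2 CPM correlated at r = 0.60 between Cyp3a11 and Cyp3a25 and at -0.24 between Cyp3a11 and Cyp3a13. Over 12 female libraries r was 0.69 for Cyp3a11 with Cyp3a25, 0.91 for Cyp3a16 with Cyp3a41b and 0.06 for Cyp3a41a with Cyp3a44. Cyp3a41b had 0 counts in every HFC female, so its r with Cyp3a16 came from the CTD libraries alone. All genes of a library share its depth and scaling, and near copies can share reads.

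Among 9589 male genes outside the family with a mean of at least 5 CPM, those whose deviations were most like Cyp3a11 were Ces2a (r = 0.95), Cyp2c55 (0.91), Tsr1 (0.90), Gsta4 (0.90) and Gstm3 (0.89). Ces2a, a carboxylesterase and a known PXR target, was highest in the 3 HFC males that were also highest for Cyp3a11, at 1096 CPM in animal 418, 746 in 540 and 718 in 416. The other 5 lay between 245 and 432 CPM and stood in another order than for Cyp3a11, and the gene was picked for this likeness. In females the genes most like Cyp3a11 were Mtx2 (r = 0.96), Atg4a (0.95), Eif3m (0.94), Rps3a1 (0.93) and Crebzf (0.92), and those most like Cyp3a41a were Abhd14a (0.95), Acsf2 (0.91), Mup-ps16 (0.89), Aptx (0.88) and Akr1c20 (0.88), from 9552 genes over 12 libraries. With few libraries and many candidates, high values are found for any gene.

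In each of the 4 diet comparisons most of 14 other listed targets of PXR and CAR were not called, and those that were called were higher on HFC except Alas1, the first enzyme of heme synthesis, in KO males. Of the 14, 6 rose and 0 fell in CT males, 4 rose and 1 fell in KO males, 2 rose and 0 fell in CT females, and 5 rose and 0 fell in KO females (edgeR, adjusted over all genes). The list's median log2 difference was 1.12, 0.84, 0.38 and 0.06 in that order, against -0.01, -0.02, 0.00 and 0.02 over all genes. In CT males Gstm1, a glutathione transferase, rose by 2.62 (SE 0.37, adjusted p = 0.000394) and Abcb1a, a drug efflux pump, by 2.58 (SE 0.36, adjusted p = 0.000418). In females Cyp2c55, a steroid and fatty acid hydroxylase, rose by 2.35 in CT (SE 0.51, adjusted p = 0.0392) and by 3.54 in KO (SE 0.51, adjusted p = 0.00199), and Ces2a by 0.80 (SE 0.18, adjusted p = 0.0416) and 0.92 (SE 0.18, adjusted p = 0.00976). Among all genes 20.0% were called in CT males, 29.1% in KO males, 2.19% in CT females and 8.59% in KO females. The lists were drawn up with earlier results of these data known.

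Neither receptor gene nor Por was called higher on HFC. Nr1i2, which encodes PXR, fell by 0.48 in KO males (SE 0.10, adjusted p = 0.00206), a call lost with library totals at adjusted p = 0.143, and was not called in CT males (-0.17, adjusted p = 0.249), CT females (-0.09, adjusted p = 0.753) or KO females (-0.15, adjusted p = 0.547). Nr1i3, which encodes CAR, was called in none of the 4, at 0.29, -0.26, -0.29 and -0.46. Por was not called either, at -0.03 and -0.43 in CT and KO males and -0.14 and -0.79 in CT and KO females, the last at adjusted p = 0.0525. Of the 15 listed receptors and liver factors 1 rose and 1 fell in CT males, and 1 rose and 6 fell in KO males. In CT females 0 were called, and in KO females 1 rose and 3 fell. Among all genes 20.0%, 29.1%, 2.19% and 8.59% were called in that order. The list's median log2 difference was -0.25, -0.31, -0.17 and -0.37, against -0.01, -0.02, 0.00 and 0.02 over all genes. Nr0b2, the bile acid-induced repressor SHP, rose by 1.35 in CT males (SE 0.22, adjusted p = 0.00109). Onecut1, which encodes HNF6, measured -1.51 in CT females (adjusted p = 0.0712) and fell by 1.83 in KO females (SE 0.39, adjusted p = 0.0157). With library totals the calls for this list were 2 up and 0 down in CT males and 1 up and 2 down in KO males.

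Among 16 other female-predominant liver genes, 0 rose and 1 fell in CT females and 1 rose and 4 fell in KO females. Among all genes 2.19% and 8.59% were called. The list's median log2 difference was -1.12 in CT and -1.23 in KO females, against 0.00 and 0.02 over all genes. Its summed level was 3534 to 3715 CPM on CTD and 2300 to 2698 on HFC in CT females. In KO females it was 3130 to 3414 CPM and 1871 to 3324 CPM. Sult3a1, a sulfotransferase, fell by 6.95 in CT (SE 0.26, adjusted p = 1.3e-08) and fell by 10.17 in KO females (SE 0.35, adjusted p = 3.2e-09), from 51.0 to 66.9 CPM on CTD to 0.59 or less on HFC. Cyp2a4, another female-predominant hydroxylase, rose by 1.32 in KO females (SE 0.22, adjusted p = 0.00336), so the called genes did not all fall. Of 12 male-predominant genes 11 were tested in males, and 4 fell and 0 rose in each male genotype. Among all genes 20.0% were called in CT males and 29.1% in KO males. Mup7, a major urinary protein, fell by 7.38 in CT males (SE 1.67, adjusted p = 0.00876). In females 8 of the 12 were tested, and 0 rose and 1 fell in CT and 1 rose and 3 fell in KO. The median log2 difference of the tested genes of this list was -1.81 in CT and -1.52 in KO males. In females it was -0.96 in CT and -1.17 in KO. The summed level of the 12 was nonetheless higher in every HFC female than in any CTD female. Of 11 listed growth hormone signalling genes and sex-biased repressors, 0 rose and 1 fell in CT males. In KO males 1 rose and 3 fell, in CT females 0 were called, and in KO females 0 rose and 2 fell. Their median log2 difference was -0.09, -0.14, -0.32 and -0.22 in that order. Over all genes it was -0.01, -0.02, 0.00 and 0.02. Ghr, the growth hormone receptor, fell by 0.47 in CT males (adjusted p = 0.0243), by 0.62 in KO males (adjusted p = 0.00303) and by 0.85 in KO females (adjusted p = 0.0275), and measured -0.78 in CT females (adjusted p = 0.0728).

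Of 20 other hepatic P450s, 1 rose and 8 fell in CT males, and 2 rose and 10 fell in KO males. In CT females 0 rose and 3 fell, and in KO females 0 rose and 6 fell. The other 11, 8, 17 and 14 were not called. Among all genes 20.0%, 29.1%, 2.19% and 8.59% were called in that order. The list's median log2 difference was -0.22, -0.49, -0.40 and -0.68. Cyp8b1, the sterol hydroxylase that sets cholic acid output, fell by 7.01 in CT males (SE 0.68, adjusted p = 6.62e-05) and fell by 8.09 in CT females (SE 0.35, adjusted p = 5.33e-08). Cyp7a1, the rate-limiting enzyme of bile acid synthesis, fell by 4.17 in CT males (SE 0.66, adjusted p = 0.00114) and fell by 3.91 in CT females (SE 0.60, adjusted p = 0.0123). Cyp3a11 thus stood on the other side of 0 from Cyp8b1 and Cyp7a1 in CT animals of both sexes. Those 2 genes were named for their small adjusted p and do not stand for the whole list.

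Cell type markers also differed between the diets. Among all genes 20.0% were called in CT males, 29.1% in KO males, 2.19% in CT females and 8.59% in KO females. All 9 macrophage markers rose in KO males and 8 of 9 in CT males. In CT males their summed level went from 334 to 541 CPM on CTD to 860 to 1462 on HFC. In females 0 were called and the sums overlapped between diets. CT females had 302 to 799 CPM on CTD and 672 to 1268 on HFC (medians of 347 and 1178). KO females had 312 to 807 CPM on CTD and 586 to 2057 on HFC. For 9 hepatocyte markers 1 fell in CT males, 2 in KO males, 0 in CT females and 3 in KO females. Their median log2 difference was -0.28, -0.33, -0.14 and -0.37 in that order. In CT females their sum went from 173184 to 178064 CPM on CTD to 105419 to 153022 on HFC. Of 7 T and NK cell markers 5 rose in CT males and 6 in KO males, and of 8 endothelial markers 1 and 3. Of 5 cholangiocyte markers 0 and 3 rose, and of 7 stellate and fibroblast markers 0 and 2. No marker of these lists was called lower in males, and 0 were called in females. Cyp3a members are also expressed in gut epithelium, and Fabp2, the only 1 of 5 enterocyte markers that could be tested in females, rose there by 1.02 in CT (SE 0.22, adjusted p = 0.0351) and by 1.60 in KO (SE 0.23, adjusted p = 0.00157). Fabp2 made up nearly all of the summed level of the 5, which was 47.4 to 50.7 CPM in CT females on CTD and 72.9 to 137 on HFC. Vil1, Sis and Lct had 0 to 8 counts per female library, Alpi had 0 in every library, and in males 0 of the 2 tested markers were called. The part of these cell types in the member differences was not tested.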

How the data were processed

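The authors deposited, for each sex, whole-number read counts per gene and CPM values, which were checked to equal each count over its library total. Per the submitters' processing notes, FastQC, edgeR and GRCm38 (mm10) were used, while the aligner, counter, annotation and strand setting are unstated in the labels. Only the deposited counts were analysed. They were TMM-scaled, filtered with filterByExpr and fitted per sex with 1 mean per group in edgeR 4.0.16 (R 4.3.3, robust quasi-likelihood test). A gene was called at a Benjamini-Hochberg adjusted p under 0.05 in a contrast. SE is the log2 difference over the square root of F, an approximation. Intervals are 95%. The labels do not say whether animals shared a litter or cage. Alternatives were DESeq2 1.42.0, other scalings, no filter, summed copies and leaving out each library. Per-length levels use the transcript with the longest coding part in GENCODE M21. Alignments used Biopython 1.88. Likeness used log2(CPM + 0.5). Of these steps, only the edgeR test of KO against CT on HFC was tried on simulated data.

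The members, the 15 gene lists with 159 genes and the tests were chosen with earlier results of these data known. All 7 members, Nr1i2, Nr1i3, Por and Myc are named. From each list up to 3 called genes with the smallest adjusted p were eligible, or up to 2 with the smallest p. Not every eligible gene is printed. Cyp3a59, Cyp3a63-ps and the Ces2a values per animal were chosen after their values were seen. SD and intervals cover the spread between animals, and the reads carry no molecular identifiers.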

Additional observations from a re-analysis of the deposited data

Results flagged for a closer look

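Of 20 combinations of a male group and a member or family sum, 1 held an animal far from the others. Cyp3a44 in CT males on CTD measured 0.449 CPM in animal 320, from 10 counts, against 1 or 2 counts in the other 3 animals of the group. The 95% critical value of Dixon's ratio sets about 1 in 20 such groups apart by chance, and the gene was below the filter in males.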

How the results depend on the processing

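The counts of members called for genotype and interaction were 0 under every alternative run, in both sexes. Diet directions of Cyp3a11, Cyp3a25 in males, Cyp3a41a, Cyp3a44 and Cyp3a16 held under every alternative run. With library totals in place of TMM the median log2 diet difference of all genes was 0.22 and 0.26 in CT and KO males and 0.30 and 0.32 in CT and KO females, against -0.01, -0.02, 0.00 and 0.02. With them 4125 genes rose and 410 fell in CT males, against 1497 and 1323. The same change gave 5581 and 511 in KO males against 2184 and 1918, 1682 and 145 in CT females against 131 and 176, and 3357 and 380 in KO females against 551 and 651. They also raised called PXR and CAR targets to 11 in CT males, 8 in KO males and 5 in CT females. DESeq2 called 919 genes in CT females and 1884 in KO females for diet, against 307 and 1202. With library totals 2 members lay wholly above in CT females, and the family total was 0.17 in CT and 0.50 in KO females.

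Leaving out 1 library gave 0 to 1 members wholly below in KO males and 1 to 2 wholly above in KO females. Uncalled genotype values near 0 changed sign when 1 library was left out, and the cause was not tested. For KO minus CT on CTD the ranges were -0.45 to 0.23 for Cyp3a13 and -0.16 to 0.12 for Cyp3a25 in males. In females they were -0.16 to 0.0425 for Cyp3a11, -0.23 to 0.12 for Cyp3a13, -0.54 to 0.59 for Cyp3a16, -0.28 to 0.058 for Cyp3a41a and -0.65 to 0.26 for Cyp3a41b. On HFC in males they were -0.67 to 0.075 for Cyp3a11, the upper end without animal 418, and -0.13 to 0.10 for Cyp3a25. For the interaction they were -0.41 to 0.28 for Cyp3a13 and -0.15 to 0.12 for Cyp3a25 in males, and -0.39 to 0.0124 for Cyp3a13, -1.33 to 0.0764 for Cyp3a41a and -0.25 to 0.62 for Cyp3a44 in females. Cyp3a25 on CTD in males, at -0.003, was also 0.0136 with library totals, 0.00222 with no filter and 0.00098 with only the 2 groups compared.

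Among the listed genes, Ces2a and Cyp2c55 in CT females lost their call under 9 and 10 of 17 settings. Fabp2 and Cyp7a1 in CT females lost theirs under 7 and 2 of 17, Onecut1, Ghr and Ces2a in KO females under 3, 6 and 1 of 17, Ghr in CT males under 4 of 21 and Alas1 and Nr1i2 in KO males under 2 and 1 of 21. Cyp3a13 in all 4 diet comparisons and Cyp3a25 in CT females changed sign under some alternatives. No paired analysis was possible because each animal has its own number and no number is shared between groups. Groups of 3 or 4 animals and the few counts left on HFC limit the genotype comparisons of Cyp3a16, Cyp3a41a, Cyp3a41b and Cyp3a44.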
